A study of Rattus norvegicus with 15 samples.

Results

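The genes described here make, bind and break down hyaluronan. They were the 7 genes Has1, Has2, Has3, Hyal1, Hyal2, Cd44 and Tnfaip6, chosen by name from a count table of 33717 rat loci, and each was found in 1 row. All 7 passed the filter on low counts, which left 14147 loci for testing. RNA-seq had been made of total RNA from primary chondrocytes of the rat temporomandibular joint, the hinge of the jaw, in 15 libraries of 5 groups. The groups of 3 libraries each were an siRNA against Ddx5 with mechanical stress, mechanical stress alone, the siRNA against Ddx5 alone, a control siRNA, and a control whose label gives no further treatment. Ddx5 encodes a DEAD-box RNA helicase, and the title of the series places it in cartilage metabolism of the osteoarthritic jaw joint. No group combined the control siRNA with stress. The sources used here do not give the mode and duration of the stress, the delivery of the siRNA, or the age, sex and strain of the rats. Nor do the labels state that the 3 libraries of each group are separate cultures or animals, and p-values here reflect only the library-to-library spread, possibly a technical one.

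Hyaluronan is a long, unsulfated glycosaminoglycan of the pericellular coat, the cartilage matrix and the joint fluid. Has1, Has2 and Has3 encode the synthases, which sit in the plasma membrane and build the chain from UDP-glucuronic acid and UDP-N-acetylglucosamine. Cd44 encodes the main cell-surface receptor for hyaluronan, which anchors the coat of aggrecan and hyaluronan around chondrocytes and takes the polymer up. Hyal2 encodes a membrane-anchored hyaluronidase that cuts long chains, and Hyal1 a lysosomal one that cuts the fragments further. Tnfaip6 encodes TSG-6, a secreted protein induced by inflammatory cytokines that moves the heavy chains of inter-alpha-inhibitor onto hyaluronan.

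The deposited table places Has1 on chromosome 1 from 59720612 to 59732409, minus strand, and Has2 on chromosome 7 from 96438046 to 96464049, minus strand. Has3 lies on chromosome 19 from 39063998 to 39077722, plus strand. Hyal2, at 116324040 to 116328978, and Hyal1, at 116332796 to 116335435, are neighbours on the plus strand of chromosome 8, with a gap of 3817 bases between them. Cd44 and Tnfaip6 are both on chromosome 3, Cd44 from 92696313 to 92783658 on the minus strand and Tnfaip6 from 37545238 to 37564699 on the plus strand. The sources used here name no genome build for these positions, and each row covers a whole gene with its exons summed.

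RefSeq promoters of the GRCr8 build, each holding 250 bases before and 50 after a gene's start, matched 5 of the 7 genes by symbol: Has1, Cd44, Hyal1, Hyal2 and Tnfaip6. Those of Has1, Hyal2 and Tnfaip6 are printed, Has1 and Hyal2 because the differences described below turn on them and Tnfaip6 as the cytokine-induced gene of the set. They lie at chr1:67378395-67378694 (minus strand), chr8:117121552-117121851 (plus strand) and chr3:56911148-56911447 (plus strand). Each is written 5′ to 3′ along the gene's own strand. Capitals mark a CRE (TGACGTCA) in Has1 and, in Tnfaip6, an AP-1 element (TGACTCA) read on the opposite strand.
Has1: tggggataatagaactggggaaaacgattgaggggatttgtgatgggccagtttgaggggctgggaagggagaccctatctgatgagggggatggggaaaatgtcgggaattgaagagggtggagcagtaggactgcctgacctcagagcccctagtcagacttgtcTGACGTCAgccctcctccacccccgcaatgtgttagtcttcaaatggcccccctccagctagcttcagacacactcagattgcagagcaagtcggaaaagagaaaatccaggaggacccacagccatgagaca
Hyal2: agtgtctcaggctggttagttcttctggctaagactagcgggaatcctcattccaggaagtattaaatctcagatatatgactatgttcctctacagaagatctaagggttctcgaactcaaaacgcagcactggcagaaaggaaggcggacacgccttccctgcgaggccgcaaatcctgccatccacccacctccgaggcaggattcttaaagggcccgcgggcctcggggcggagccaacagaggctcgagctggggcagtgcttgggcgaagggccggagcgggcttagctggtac
Tnfaip6: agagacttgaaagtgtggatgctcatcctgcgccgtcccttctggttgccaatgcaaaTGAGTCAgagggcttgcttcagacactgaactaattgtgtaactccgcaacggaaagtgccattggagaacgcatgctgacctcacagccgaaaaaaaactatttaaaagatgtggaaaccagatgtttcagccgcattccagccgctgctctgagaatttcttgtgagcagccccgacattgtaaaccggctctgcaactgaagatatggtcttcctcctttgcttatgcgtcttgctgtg

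The CRE is the element bound by CREB and ATF proteins, and AP-1 is the element bound by Fos and Jun proteins. The letters searched on both strands were TGACGTCA for CRE, TGACTCA for AP-1, ACGTG for the hypoxia response element, TATAAA and CCAAT, together with the kappaB element of NF-kappaB, and they were chosen with the sequences in view. In Has1 the CRE starts 83 bases before the gene's start (position -83), and 1.83% of 33469 promoters of this length hold one. In Tnfaip6 the AP-1 match starts at position -192, and 4.63% of the promoters hold one. Tnfaip6 also has CCAAT letters at positions -202 and -131, and Hyal1 has them at position -34, letters that 37.5% of promoters hold. The Hyal2 and Cd44 windows held none of the 6 motifs, and no kappaB letters were in any of the 5 windows. These matches describe the windows and do not show that a factor binds there.

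Total counts ran from 14309005 to 16219775 per library, at which 3 counts correspond to at most 0.218 CPM (counts scaled to a common library total after TMM, a correction by the trimmed mean of log ratios between libraries). Ddx5 itself had 164, 241 and 194 CPM in Ddx5 siRNA plus stress libraries and 360, 416 and 418 CPM in stress libraries. It had 221, 252 and 207 CPM in Ddx5 siRNA libraries and 397, 398 and 360 CPM in control siRNA libraries, so the knockdown groups were below their comparison groups in every library. The chondrocyte label was set against 9 markers, whose summed level was 124 to 423 CPM over the libraries. Most of that sum was Acan, the aggrecan gene, at 73.4 to 367 CPM, while Comp had 12.5 to 29.4 CPM and Sox9 8.95 to 27.8 CPM. Matn1, a cartilage matrix gene, was at 0 in every stress, control siRNA and control library, and the cartilage collagen Col2a1 stayed between 0.327 and 4.49 CPM. The 6 fibroblast markers summed to between 37573 and 86289 CPM, most of it Col1a1, and the 6 skeletal muscle markers to between 13.3 and 41.6 CPM. The 8 macrophage and leukocyte markers summed to between 18.8 and 42.6 CPM, most of it Cd14, at 16.8 to 41.2 CPM. In the same list Cd68 averaged 1.26 to 1.53 CPM by group, and the pan-leukocyte marker Ptprc was at 0 in every group but stress, where its highest level was 0.0609 CPM. In both groups with the Ddx5 siRNA replicate 1 stood apart: its fibroblast sum was 80637 CPM with stress and 80773 CPM without, against 48507 to 57352 CPM in the other libraries of those groups. The same libraries differed from their group by 47.3 to 62.8 chi-square units per degree of freedom, where the remaining pairs of those groups differed by 7.64 and 9.26. Values without both of these libraries are given beside the results of Has1, Hyal2, Cd44, Cemip, Cemip2 and the pathway genes called in those groups.

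Per kilobase of gene length, the only scale on which levels of different genes are compared here, Cd44 was highest, with a median of 93.7 CPM per kb over the 15 libraries and a range of 67.7 to 120. Hyal2 followed with 33.8 CPM per kb (21.2 to 39.1). Has2 had 10.04 CPM per kb (5.70 to 14.3). Tnfaip6 and Hyal1 came next with medians of 6.38 and 6.18 CPM per kb, and their ranges of 4.15 to 13.2 and 3.44 to 9.03 overlapped each other and that of Has2. Has1 had 0.773 CPM per kb (0.229 to 1.39), and Has3 had 0.0939 CPM per kb (0.0375 to 0.201). The ranges of Cd44, Hyal2, Has2, Has1 and Has3 did not overlap one another at any step of this order.

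**Figure D1:**
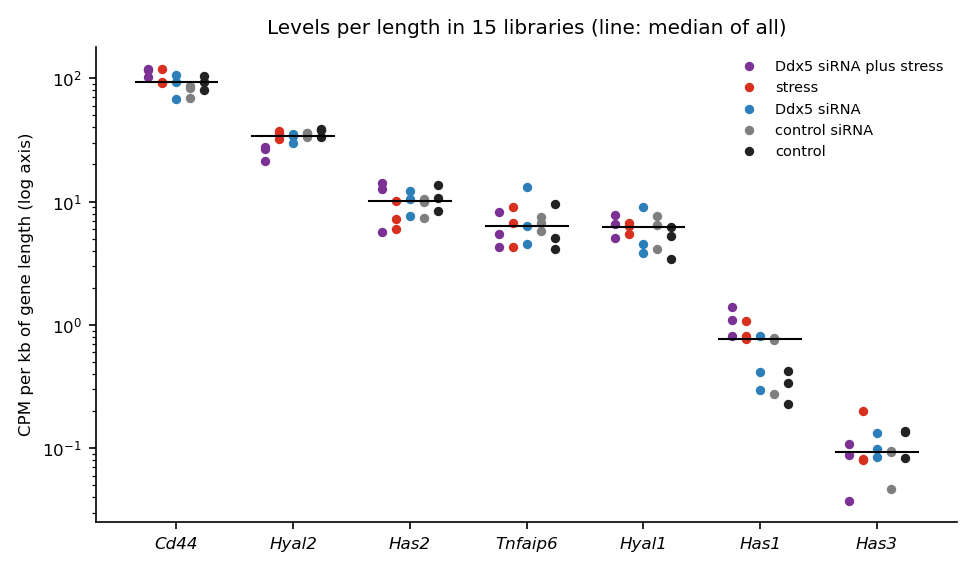
Level of each hyaluronan gene per kilobase of gene length (vertical log axis, CPM per kb) in 15 libraries, coloured by group, with the median of all libraries as a line. Cd44 and Hyal2 lie above the other genes, and Has1 and Has3 lie below them.

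The synthase transcripts were mostly Has2. Has2, the synthase that is required for cartilage and heart development in mice, made up 82.5% to 97.0% of the summed level per kb of the 3 synthases. The share of Has1 was 6.004% to 15.9% in Ddx5 siRNA plus stress libraries and 7.09% to 14.8% in stress libraries. It was 2.73% to 9.62% in Ddx5 siRNA libraries, 2.69% to 9.60% in control siRNA libraries and 2.08% to 4.72% in control libraries. Thus the lowest share under stress alone was above the highest in the control, while both siRNA groups without stress overlapped the stressed ones. Hyal1 and Hyal2 together had 2.19 to 5.56 times the per-length level of the synthases, and every group's range overlapped every other group's.

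Has1, the least active of the synthases in cell-based assays, rose when both stress comparisons were averaged in the fit without pairs, and was called in neither alone there. Its level was 2.28, 1.72 and 2.91 CPM in the Ddx5 siRNA plus stress libraries, against 1.72, 0.621 and 0.875 CPM in the Ddx5 siRNA libraries. It was 2.25, 1.62 and 1.70 CPM in the stress libraries, against 0.891, 0.715 and 0.479 CPM in the control libraries. All stress libraries lay above all control libraries, and with the Ddx5 siRNA the lowest stressed library was just below the highest unstressed one. The control siRNA libraries, at 1.57, 0.581 and 1.66 CPM, reached into the stressed range in 1 of 3.

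These levels rested on few reads. Has1 had 35, 25 and 46 counts in Ddx5 siRNA plus stress libraries, 37, 26 and 27 in stress libraries, 26, 10 and 14 in Ddx5 siRNA libraries, 24, 8 and 25 in control siRNA libraries and 15, 11 and 8 in control libraries. Averaged over both stress comparisons (the mean of Ddx5 siRNA plus stress minus Ddx5 siRNA and of stress minus control), Has1 rose by 1.26 on the log2 scale (SE 0.32, 95% interval 0.57 to 1.94), a 2.39-fold change, with an adjusted p of 0.0336 (edgeR quasi-likelihood test, Benjamini-Hochberg over all loci tested). The stressed library was the higher one in 6 of 6 pairs of the same replicate number, an order whose share of all loci was not counted. Has1 was the 1 of 7 members called, and it was called higher. Over all loci tested, 5.56% were called in either direction and 4.07% were called higher. An unadjusted p under 0.05 was reached by 2 of 7 members, Has1 and Hyal2, against 20.2% of loci. DESeq2 also called 1 member, where it called 8.67% of loci.

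The Has1 call depended on single libraries. Of the 12 fits that left out 1 library, 4 kept an adjusted p under 0.05, those without control replicate 1 (0.0491), stress replicate 3 (0.0497), Ddx5 siRNA replicate 1 (0.0118) and Ddx5 siRNA plus stress replicate 2 (0.0346). The 8 others gave adjusted p-values up to 0.0878: 0.0817 and 0.0538 without stress replicates 1 and 2, 0.0643 and 0.0741 without control replicates 2 and 3, 0.0878 and 0.0852 without Ddx5 siRNA replicates 2 and 3, and 0.0510 and 0.0664 without Ddx5 siRNA plus stress replicates 1 and 3. The log2 change stayed between 1.12 and 1.51 in all 12. Without both replicate 1 libraries that stood apart it was 1.52, with an adjusted p of 0.0127.

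**Figure D2:**
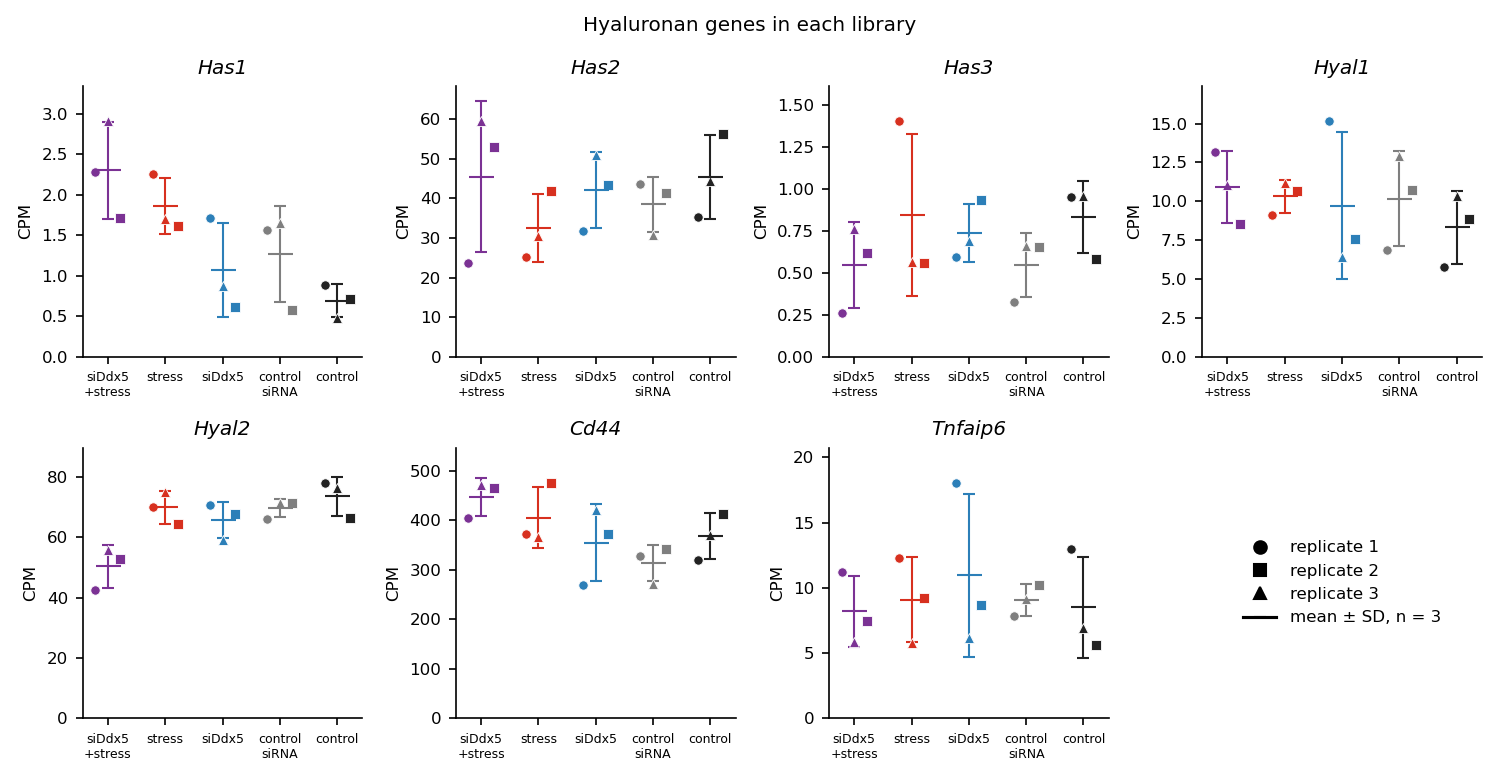
Level of each hyaluronan gene (vertical axis, CPM) in every library of the 5 groups, with marker shapes for replicate numbers and bars for the mean and SD of 3 libraries. Has1 in the 3 stress libraries lies above Has1 in the 3 control libraries, and Hyal2 in the 3 Ddx5 siRNA plus stress libraries lies below that in the other groups.

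In neither stress comparison alone was Has1, or another member, called. Stress against control gave a log2 change of 1.41 for Has1 (SE 0.46, adjusted p = 0.157 in edgeR), and its 3 stress libraries were all above the 3 control libraries, an order that 11.3% of loci showed in that direction. Ddx5 siRNA plus stress against Ddx5 siRNA gave 1.10 (SE 0.45, adjusted p = 0.346). In stress against control edgeR called 0 of 7 members, where 1.41% of loci were called, and 1 of 7, Has1, had an unadjusted p under 0.05, as had 15.1% of loci. In Ddx5 siRNA plus stress against Ddx5 siRNA edgeR called 0 of 7, where 1.19% of loci were called, and 2 of 7, Has1 and Hyal2, had an unadjusted p under 0.05, as had 11.1% of loci. DESeq2 called 0 members in both.

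The stress effect with the Ddx5 siRNA minus that without it was -0.31 for Has1 on the log2 scale (SE 0.64, 95% interval -1.66 to 1.05). The interval reaches far to both sides of 0, so a change of the Has1 response by the knockdown was not detectable at this depth. For no member was this difference called by edgeR or DESeq2, edgeR called 0% of all loci, and 0 of 7 members against 3.12% of loci had an unadjusted p under 0.05. Has1 in Ddx5 siRNA plus stress against stress differed by 0.31 (SE 0.43, interval -0.61 to 1.23).

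Has2 did not pass the test in any comparison of the whole set of libraries. Its level was 23.8, 53.1 and 59.5 CPM in Ddx5 siRNA plus stress libraries, against 31.8, 43.5 and 51.1 CPM in Ddx5 siRNA libraries. It was 25.1, 41.9 and 30.4 CPM in stress libraries, against 35.3, 56.4 and 44.3 CPM in control libraries, and 43.6, 41.5 and 30.7 CPM in control siRNA libraries. The groups overlapped, and replicate 1 was the lowest library in 4 of 5 groups, all but the control siRNA.

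Within pairs of the same replicate number Has2 was lower with stress alone in 3 of 3, by -0.49, -0.43 and -0.54 on the log2 scale, a spread much smaller than that between libraries. The fit without pairs gave -0.48 for stress against control (SE 0.32, interval -1.17 to 0.21, adjusted p = 0.514), and a fit of those 6 libraries with a block for the replicate number gave the same size, -0.48, with an SE of 0.094 and an adjusted p of 0.0025. With the block in the fit of all 15 libraries the adjusted p was 0.358. In the blocked fit of 6 libraries Has1 was called as well, at 1.43 (SE 0.42, adjusted p = 0.0346), so 2 of 7 members were called, where that fit called 12.5% of loci. With the Ddx5 siRNA the Has2 pairs differed by -0.42, 0.29 and 0.22, and the fitted change was 0.11 (SE 0.32, interval -0.58 to 0.80).

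Has3, the third synthase, was near the limit of detection, with 4 to 23 counts per library. Its level averaged 0.546 ± 0.257 CPM in Ddx5 siRNA plus stress libraries, 0.843 ± 0.484 CPM in stress libraries, 0.738 ± 0.174 CPM in Ddx5 siRNA libraries, 0.547 ± 0.191 CPM in control siRNA libraries and 0.831 ± 0.213 CPM in control libraries (SD, n = 3 each). All groups overlapped. Over both stress comparisons the log2 change was -0.21 with an interval of -0.98 to 0.57, so a sizeable change of Has3 in either direction was not detectable at these counts.

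**Figure D3:**
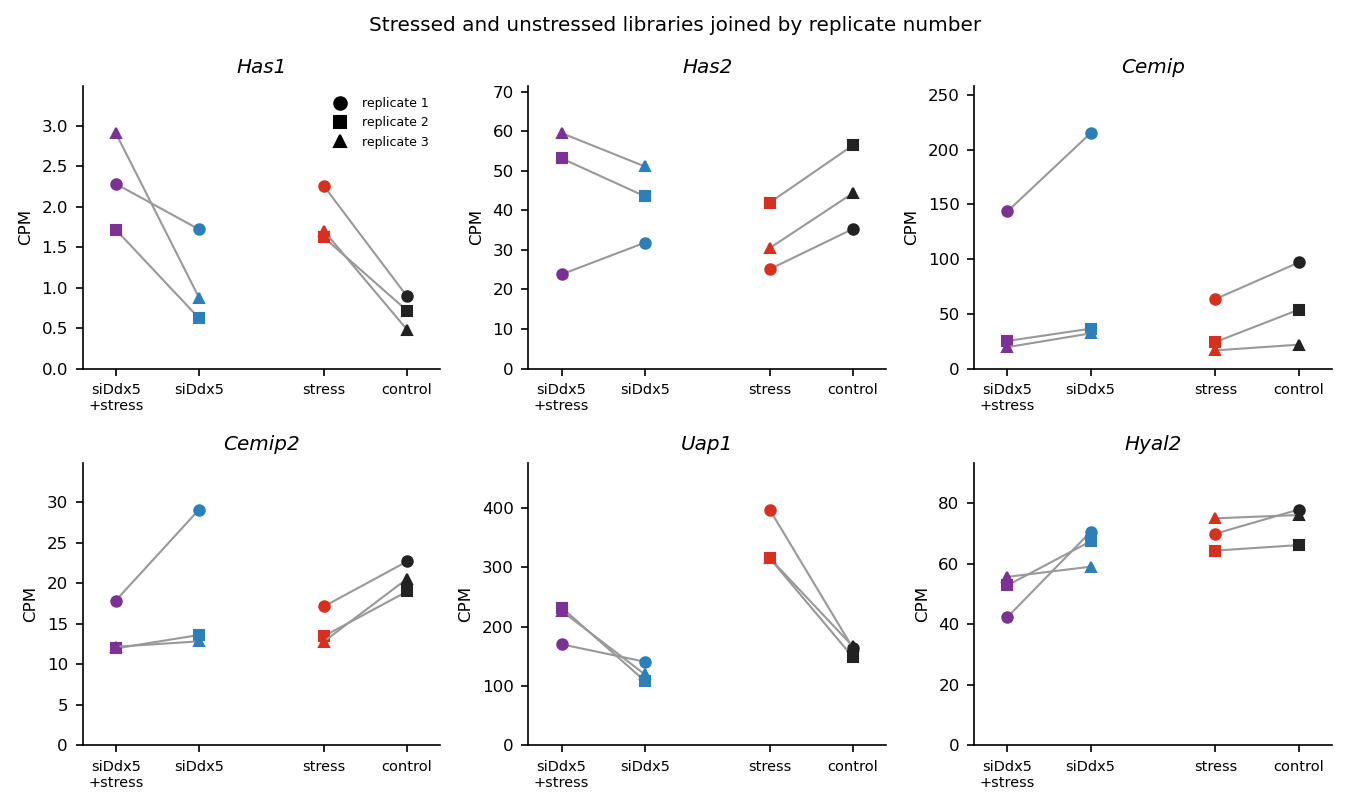
Levels (vertical axis, CPM) of Has1, Has2, Cemip, Cemip2, Uap1 and Hyal2 in stressed and unstressed libraries, with and without the Ddx5 siRNA, lines joining libraries of the same replicate number. Has1 and Uap1 are higher and Cemip, Cemip2 and Hyal2 lower on the stressed side in 6 of 6 pairs. Has2 is lower in 3 of 3 pairs without the siRNA and in 1 of 3 with it.

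Hyal2 was lowest where the Ddx5 siRNA and stress were combined. It had 42.4, 52.9 and 55.7 CPM in Ddx5 siRNA plus stress libraries, against 70.0, 64.4 and 75.1 CPM in stress libraries. It had 70.6, 67.5 and 59.1 CPM in Ddx5 siRNA libraries, 66.2, 71.4 and 71.3 CPM in control siRNA libraries and 78.0, 66.2 and 76.2 CPM in control libraries. Every library with both treatments lay below every library of the other 4 groups. The share of all loci with this order was not counted, and those against stress and against the Ddx5 siRNA are given below.

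Ddx5 siRNA plus stress against stress gave -0.47 for Hyal2 on the log2 scale (SE 0.11, interval -0.71 to -0.23), which missed the edgeR threshold with an adjusted p of 0.152. DESeq2 gave -0.48 with an adjusted p of 0.0185, the 1 member it called, where it called 1.19% of loci. EdgeR called 0 of 7 members, where 0.0283% of loci were called, and 1 of 7, Hyal2, had an unadjusted p under 0.05, as had 11.6% of loci. The order in which all libraries of the combined group lay below all stress libraries was shown by 7.32% of loci. Against the Ddx5 siRNA alone the change was -0.39 (SE 0.11, adjusted p = 0.145 in edgeR), with all 3 libraries below, an order that 6.53% of loci showed. Both comparisons use the same 3 libraries of the combined group. The stress label names no siRNA, so against stress the knockdown and any siRNA effect cannot be told apart.

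Replicate 1 was the lowest Hyal2 library of the combined group, and without both replicate 1 libraries that stood apart the changes were -0.37 against stress (adjusted p = 0.0895) and -0.22 against the Ddx5 siRNA (adjusted p = 0.589). The part of the fibroblast markers that move with those libraries in this result was not tested. Stress alone left Hyal2 at -0.073 relative to the control (SE 0.11, interval -0.31 to 0.17). Over both stress comparisons Hyal2 changed by -0.23 (SE 0.080, interval -0.40 to -0.059, adjusted p = 0.113 in edgeR). Its stressed library was the lower one in 3 of 3 same-numbered pairs of each comparison. The difference between the stress effects was -0.31 (SE 0.16, interval -0.65 to 0.028). In whole-culture RNA such as this, fewer cells of a type and less RNA per cell cannot be told apart.

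Hyal1, the lysosomal hyaluronidase next to Hyal2, did not share that pattern. Its level was 13.2, 8.51 and 11.1 CPM in Ddx5 siRNA plus stress libraries, 9.14, 10.6 and 11.2 CPM in stress libraries, 15.1, 7.57 and 6.44 CPM in Ddx5 siRNA libraries, 6.86, 10.7 and 12.9 CPM in control siRNA libraries and 5.76, 8.84 and 10.4 CPM in control libraries. All groups overlapped. Its changes were 0.082 in Ddx5 siRNA plus stress against stress (SE 0.32) and 0.24 over both stress comparisons (SE 0.22, interval -0.24 to 0.72). Across the 15 libraries the log2 CPM of Hyal1 and Hyal2 had a Pearson correlation of -0.15, a description only, since libraries of a group share their treatment.

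Cd44 was the most abundant of the 7 genes. It had 404, 465 and 472 CPM in Ddx5 siRNA plus stress libraries, against 269, 373 and 421 CPM in Ddx5 siRNA libraries. It had 372, 476 and 366 CPM in stress libraries, against 319, 412 and 371 CPM in control libraries, and 328, 341 and 272 CPM in control siRNA libraries. The combined group held high values in all 3 libraries, but 1 Ddx5 siRNA library and 1 control library reached into its range and 1 stress library lay above it.

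Ddx5 siRNA plus stress against Ddx5 siRNA gave 0.34 for Cd44 (SE 0.16, interval -0.0031 to 0.67, adjusted p = 0.455 in edgeR), and the stressed library was higher in 3 of 3 pairs. With those 6 libraries and a block for the replicate number the change was 0.35 (SE 0.076) with an adjusted p of 0.0197, the 1 of 7 members called there, where that fit called 6.71% of loci. The Cd44 pairs differed by 0.59, 0.32 and 0.16, the first being that of the replicate 1 libraries that stood apart. Without Ddx5 siRNA replicate 1 the change in the fit without pairs was 0.17 (adjusted p = 0.660). Without both replicate 1 libraries it was 0.24 (adjusted p = 0.658), and with the block in the 4 libraries left it was 0.24, with an adjusted p of 0.0579, so the blocked call was lost. Stress against control gave 0.14 (SE 0.16, interval -0.20 to 0.48), and the difference between the 2 stress effects was 0.20 (SE 0.22). The counts are per gene, so the variant exons of Cd44 and its shed form were not measured.

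Tnfaip6 followed the replicate number in most groups. It had 11.2, 7.48 and 5.88 CPM in Ddx5 siRNA plus stress libraries, 12.3, 9.22 and 5.80 CPM in stress libraries, 18.1, 8.69 and 6.19 CPM in Ddx5 siRNA libraries, 7.84, 10.2 and 9.14 CPM in control siRNA libraries and 12.9, 5.65 and 6.89 CPM in control libraries. Replicate 1 was the highest library in 4 of 5 groups, all but the control siRNA, the same groups in which it was lowest for Has2. Over both stress comparisons the log2 change of Tnfaip6 was -0.16 (SE 0.29, interval -0.79 to 0.47). Its direction turned in several comparisons when 1 library was left out. Across the 15 libraries its log2 CPM had a Pearson correlation of -0.64 with that of Has2 and -0.57 with that of Cd44.

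**Figure D4:**
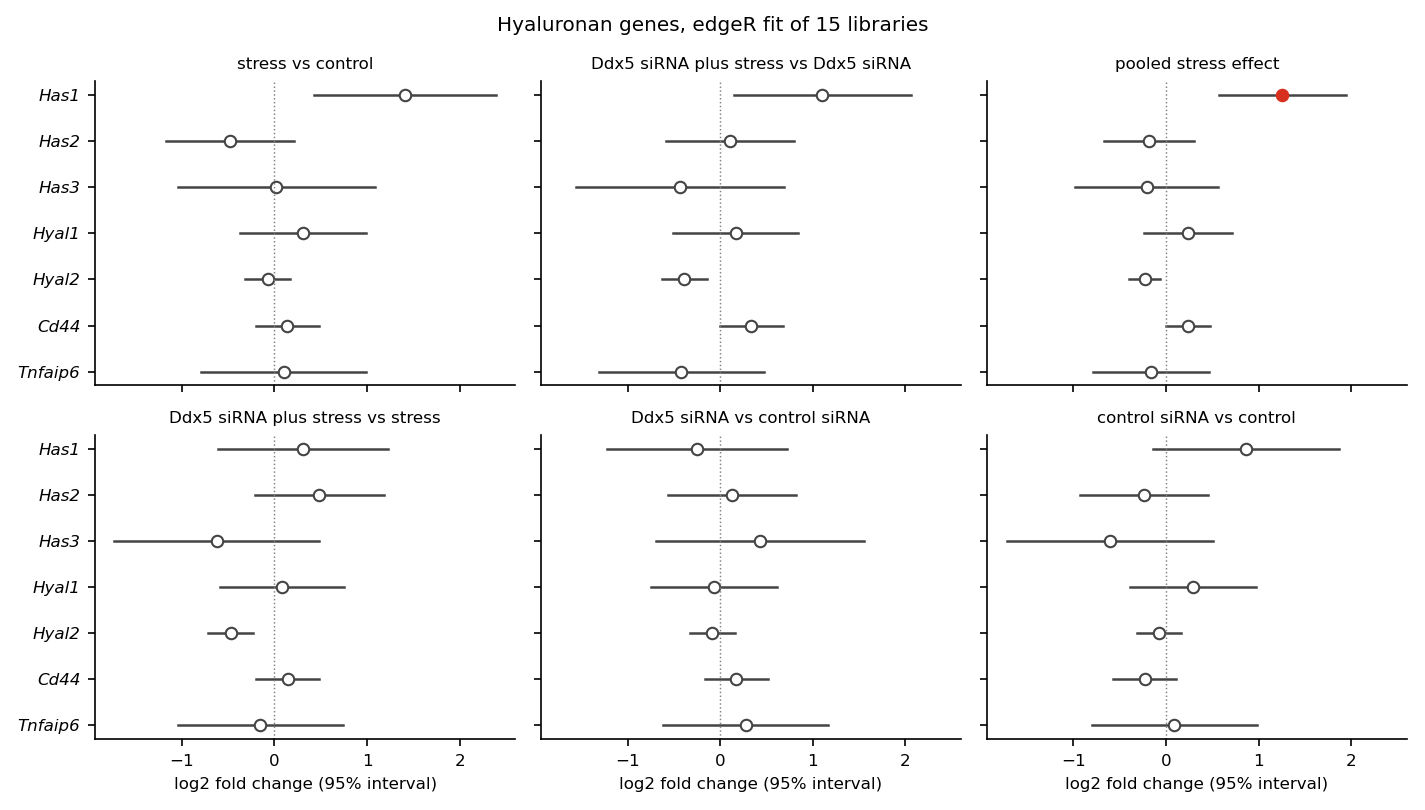
Log2 fold change of each hyaluronan gene (horizontal axis, with its 95% interval) in 6 comparisons of the edgeR fit of 15 libraries, a filled point marking an adjusted p under 0.05. The filled point is Has1 in the pooled stress effect, and the intervals of Hyal2 lie below 0 where the Ddx5 siRNA plus stress group is on top.

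The knockdown without stress called none of the 7 genes. In Ddx5 siRNA against control siRNA edgeR called 0 of 7 members, where 0.396% of loci were called, and 0 of 7 against 15.5% of loci had an unadjusted p under 0.05. DESeq2 called 0. The log2 changes lay between -0.25 for Has1 (SE 0.46) and 0.43 for Has3 (SE 0.53), and the narrowest intervals were those of Hyal2, -0.32 to 0.16, and Cd44, -0.16 to 0.51. The control siRNA was also set against the control, since they differed in many genes: edgeR called 3.87% of loci there. Of the members it called 0 of 7, DESeq2 called 0, and 0 of 7 had an unadjusted p under 0.05, where 20.5% of loci had one. The largest change was 0.87 for Has1 (SE 0.47, interval -0.14 to 1.87).

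Of the other genes of hyaluronan metabolism, those that make the UDP-sugar precursors held 3 of the 4 edgeR calls over both stress comparisons. There 2 of the 9 genes tested rose and 1 fell, where 5.56% of all loci were called, with a median log2 change of 0.078, against -0.0051 over all loci. Uap1 joins UTP to N-acetylglucosamine phosphate in the last step to UDP-N-acetylglucosamine. It had 170, 232 and 227 CPM in Ddx5 siRNA plus stress libraries, against 141, 108 and 119 CPM in Ddx5 siRNA libraries. It had 398, 315 and 316 CPM in stress libraries, against 164, 148 and 166 CPM in control libraries, so no stressed library was as low as its unstressed counterpart group. That order was shown by 1234 of 14147 loci with the Ddx5 siRNA and by 1592 for stress against control.

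Uap1 rose by 1.10 in stress against control (SE 0.13, adjusted p = 0.000623), by 0.77 in Ddx5 siRNA plus stress against Ddx5 siRNA (SE 0.13, adjusted p = 0.00802) and by 0.94 over both (adjusted p = 2.9e-05, edgeR). The second of these calls was lost without Ddx5 siRNA replicate 2 (0.0661) or replicate 3 (0.0541), and in a fit of the 6 libraries alone, without the block (0.209) and with it (0.195). Uap1 was also lower in control siRNA libraries, at 97.5, 90.2 and 85.8 CPM, than in control libraries, by -0.81 (adjusted p = 0.0047). Ugdh, which oxidises UDP-glucose to UDP-glucuronic acid, rose by 0.48 over both stress comparisons (adjusted p = 0.0126), and it too was lower in control siRNA than in control libraries, by -0.57 (adjusted p = 0.0409). That Ugdh call for the control siRNA was lost, with adjusted p-values of 0.0669 to 0.168, when any of its 6 libraries was left out. Without both replicate 1 libraries that stood apart the changes over both stress comparisons were 1.06 for Uap1 (adjusted p = 2.3e-07) and 0.53 for Ugdh (adjusted p = 0.000359), and Uap1 in Ddx5 siRNA plus stress against Ddx5 siRNA was 1.01 (adjusted p = 0.000158).

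Pgm3, a phosphate mutase earlier in the route to UDP-N-acetylglucosamine, fell over both stress comparisons by 0.32 on the log2 scale (adjusted p = 0.0124). It had 52.7, 58.7 and 60.5 CPM in Ddx5 siRNA plus stress libraries, against 67.5, 65.8 and 65.7 CPM in Ddx5 siRNA libraries, and 49.2, 57.5 and 56.1 CPM in stress libraries, against 77.1, 68.8 and 71.8 CPM in control libraries. Both stressed groups lay below their unstressed ones, an order that 924 of 14147 loci showed with the Ddx5 siRNA and 1478 for stress against control. In stress against control it was -0.42 (adjusted p = 0.0409), a call lost when any of the 6 libraries was left out (0.0708 to 0.190). The change over both without both replicate 1 libraries that stood apart was -0.28 (adjusted p = 0.0278). The most abundant genes of the list that were not called, Pgm1 and Gfpt1, changed by 0.078 (SE 0.21) and -0.10 (SE 0.12) over both.

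**Figure D5:**
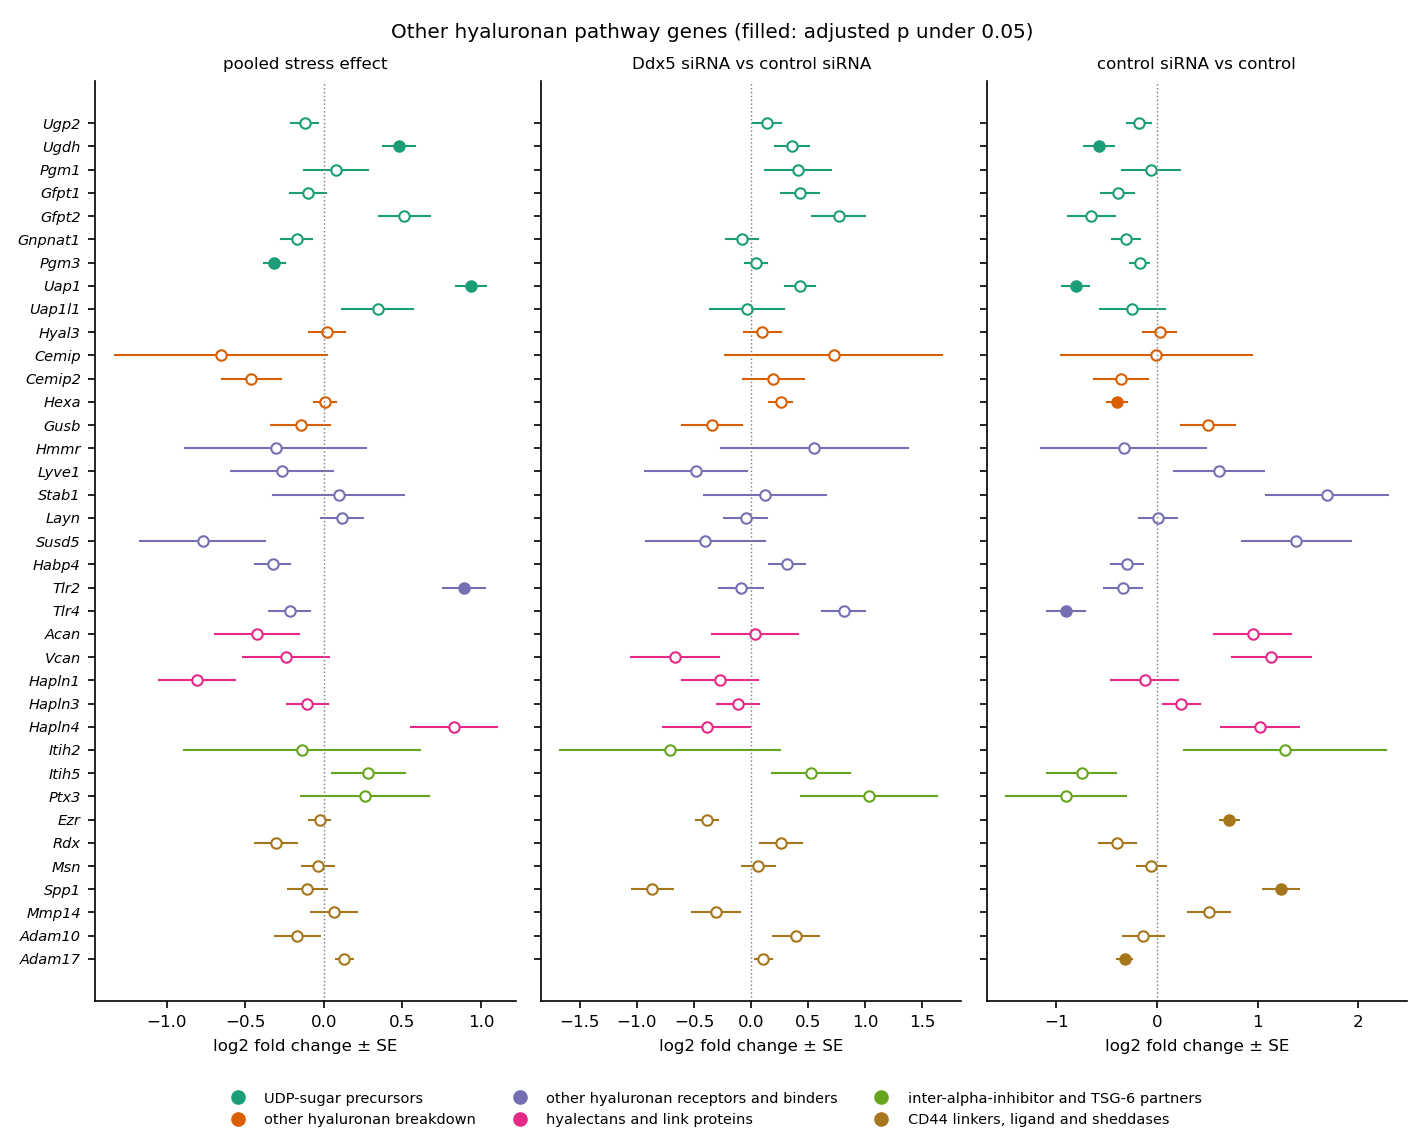
Log2 fold change with its SE (horizontal axis) of other hyaluronan pathway genes in 3 comparisons, coloured by list, filled where the adjusted p was under 0.05. Uap1 and Ugdh are filled on the higher side for the pooled stress effect and on the lower side for control siRNA against control.

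Of the other genes of hyaluronan breakdown considered here 5 of 7 were tested, and edgeR and DESeq2 each called 0 over both stress comparisons, where they called 5.56% and 8.67% of loci, with 1 at an unadjusted p under 0.05, as had 20.2% of loci. Hyal4 and Spam1 had no count in any library. Hexa, a gene of lysosomal fragment breakdown, had the highest mean CPM of the 5 and changed by 0.0088 (SE 0.071). Reads of Hyal3 may be shared with a neighbouring locus that its row overlaps by 3179 bases.

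Cemip and Cemip2 encode hyaluronan-depolymerising proteins outside the lysosome, and they were singled out after their values were seen. Cemip had 144, 25.2 and 19.5 CPM in Ddx5 siRNA plus stress libraries, against 215, 36.4 and 32.1 CPM in Ddx5 siRNA libraries. It had 63.5, 24.2 and 16.6 CPM in stress libraries, against 96.9, 53.7 and 21.8 CPM in control libraries. Replicate 1 was the highest of the 3 in each of these groups, several times above the others with the Ddx5 siRNA. Within replicate numbers the stressed library was lower in 6 of 6 pairs. The share of all loci with that order was not counted. It was not particular to the Cemip genes, since other genes of the lists showed it, among them Pgm3, Habp4, Acan and Vcan.

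The fit without pairs gave Cemip -0.72 in stress against control (SE 0.96, adjusted p = 0.782) and -0.59 in Ddx5 siRNA plus stress against Ddx5 siRNA (adjusted p = 0.911). Fits of the 6 libraries of each comparison with a block for the replicate number gave -0.73 (SE 0.13, adjusted p = 0.0038) and -0.61 (SE 0.077, adjusted p = 0.00044). Those fits called 12.5% and 6.71% of all loci. Without both replicate 1 libraries that stood apart the second was -0.62 (adjusted p = 0.904) without the block and -0.62 (adjusted p = 0.00743) with it. Without Ddx5 siRNA replicate 1 alone the fit without pairs gave 0.87 (adjusted p = 0.752).

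Cemip2, listed under its older symbol Tmem2, was also lower in 6 of 6 pairs. Its change in stress against control was -0.52 (adjusted p = 0.382). With the block in 6 libraries it was -0.53 (adjusted p = 0.0091), where that fit called 12.5% of loci. In Ddx5 siRNA plus stress against Ddx5 siRNA it was -0.40 (adjusted p = 0.660), with overlapping groups, and -0.34 with the block (adjusted p = 0.227). That second change was 0.082 without Ddx5 siRNA replicate 1 and -0.13 without both replicate 1 libraries, with the block or without it. Over both stress comparisons it was -0.46 (adjusted p = 0.182), and -0.45 with the block among the 12 libraries compared (adjusted p = 0.0454), a call that missed the threshold without both replicate 1 libraries (-0.33, adjusted p = 0.0510). That block also joins same-numbered libraries with and without the Ddx5 siRNA, which did not deviate together in every pair (correlations of 0.05 to 0.31 under stress).

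Among the other hyaluronan receptors and binders, 8 of 9 were tested and 1, Tlr2, rose over both stress comparisons, where 4.07% of loci were called higher. Tlr2 is an innate immune receptor reported to respond to hyaluronan fragments. It had 95.5, 81.9 and 79.5 CPM in Ddx5 siRNA plus stress libraries, against 64.3, 38.1 and 34.2 CPM in Ddx5 siRNA libraries, and 107, 119 and 111 CPM in stress libraries, against 72.9, 58.0 and 52.8 CPM in control libraries. The groups were apart in both comparisons. All stressed libraries were the higher ones in 1234 of 14147 loci with the Ddx5 siRNA and in 1592 for stress against control.

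The changes of Tlr2 were 0.87 in stress against control (SE 0.19, adjusted p = 0.0343), 0.91 in Ddx5 siRNA plus stress against Ddx5 siRNA (adjusted p = 0.0283) and 0.89 over both (adjusted p = 0.00107). The pooled call was kept in all 12 fits that left out 1 library. The first was kept in 1 of 6 such fits, that without control replicate 1 (0.0491), and ran up to 0.115 otherwise. The second was lost without Ddx5 siRNA replicate 2 (0.167) or 3 (0.128), without Ddx5 siRNA plus stress replicate 1 (0.119) or 2 (0.0515), and in the 6 libraries alone (0.344). It was 1.16 without both replicate 1 libraries that stood apart (adjusted p = 0.000158), and the change over both was 1.02 (adjusted p = 1.6e-06). The most abundant uncalled genes of this list, Habp4 and Hmmr, changed by -0.33 (SE 0.11) and -0.30 (SE 0.59).

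In the remaining lists edgeR made no call for stress over both comparisons, where it called 5.56% of loci, DESeq2 called 8.67%, and 20.2% had an unadjusted p under 0.05. Of the hyalectans and link proteins, which fasten proteoglycans to hyaluronan, edgeR called 0 of 5 tested, with 2 at an unadjusted p under 0.05, and DESeq2 called 1, the link protein gene Hapln1 (-0.81, adjusted p = 0.0223). The other gene at an unadjusted p under 0.05, the link protein gene Hapln4, went the opposite way, by 0.83 (SE 0.27, adjusted p = 0.0898 in edgeR). Acan and Vcan, the aggrecan and versican genes, changed by -0.43 (SE 0.27) and -0.24 (SE 0.27). Both were lower with stress in 3 of 3 same-numbered pairs of each stress comparison. Of inter-alpha-inhibitor and the other partners of TSG-6, 3 of 7 were tested, 0 were called by edgeR or DESeq2 and 0 had an unadjusted p under 0.05, with Ptx3 at 0.26 (SE 0.41) and Itih5 at 0.28 (SE 0.23). Of the CD44 linkers, ligand and sheddases 0 of 7 were called by edgeR or DESeq2 and 2 had an unadjusted p under 0.05, with Spp1 at -0.10 (SE 0.13) and Msn at -0.039 (SE 0.10).

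Single markers of cell types moved with stress as well. Among the chondrocyte markers 1 of 7 tested, Sox9, a transcription factor of cartilage, fell over both stress comparisons by 0.93 on the log2 scale (adjusted p = 0.00184). Over all loci 5.56% were called there, and 3 of the 7 markers had a positive log2 change. Among the skeletal muscle markers 1 of 3 tested, Myh1, a myosin heavy chain gene, fell by 0.82 (adjusted p = 0.000401). Sox9 and Myh1 were both called in each stress comparison alone, where 1.41% and 1.19% of loci were called. The other muscle markers tested, Acta1 and Tnnt3, changed by -1.56 (SE 1.14) and 0.15 (SE 0.27) over both. Myog had no count in any library, and Ckm and Mb were too low to be tested. Myh1 had 8.54 to 10.2 CPM in Ddx5 siRNA plus stress libraries against 15.5 to 17.1 CPM in Ddx5 siRNA libraries, and 6.87 to 8.77 CPM in stress libraries against 12.6 to 14.4 CPM in control libraries. In Ddx5 siRNA against control siRNA Myh1 was higher by 1.14 (adjusted p = 0.0176), with 15.5 to 17.1 CPM in Ddx5 siRNA libraries and 6.16 to 8.71 CPM in control siRNA libraries. The sums of the 6 muscle markers were 15.3 to 26.5 CPM in Ddx5 siRNA plus stress libraries against 22.3 to 41.6 CPM in Ddx5 siRNA libraries, and 13.3 to 21.3 CPM in stress libraries against 21.1 to 23.3 CPM in control libraries. The part of these markers in the results above was not tested.

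In Ddx5 siRNA against control siRNA edgeR called 0 of the 37 pathway genes tested, where 0.396% of loci were called, with 8 at an unadjusted p under 0.05, as had 15.5% of loci. DESeq2, which called 3.03% of loci, called 4 there, Spp1 (-0.86, adjusted p = 0.000758), Ezr (-0.38, adjusted p = 0.00939), Tlr4 (0.82, adjusted p = 0.00939) and Gfpt2 (0.77, adjusted p = 0.0487), an amidotransferase that opens the hexosamine route. In Ddx5 siRNA plus stress against stress edgeR called 0 of 37, where 0.0283% of loci were called, with 8 at an unadjusted p under 0.05, as had 11.6% of loci. DESeq2, which called 1.19% of loci, called 1, Uap1 (-0.72, adjusted p = 0.000377). With both replicate 1 libraries that stood apart left out, edgeR gave Spp1 -0.98 (adjusted p = 0.00611), Ezr -0.38 (0.0219), Tlr4 0.91 (0.00705) and Gfpt2 0.87 (0.0239) in the first of these comparisons and Uap1 -0.59 (0.0220) in the second. Hapln1, Hapln4 and the pathway genes named from these DESeq2 calls were chosen after their values were seen. The stress label names no siRNA, so in the second comparison the knockdown and any siRNA effect cannot be told apart. Uap1 averaged 91.2 CPM in control siRNA libraries and 160 CPM in control libraries. In Ddx5 siRNA against control siRNA it was higher by 0.43 (SE 0.13, adjusted p = 0.161 in edgeR).

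In control siRNA against control edgeR called 7 of 37, where 3.87% of loci were called, and 17 of 37 had an unadjusted p under 0.05, as had 20.5% of loci. Ezr, which links Cd44 to actin, had 134, 135 and 120 CPM in control siRNA libraries, against 74.9, 84.5 and 77.1 CPM in control libraries (log2 change 0.72, adjusted p = 0.000904). Spp1, a secreted ligand of Cd44, had 2063, 1945 and 1594 CPM in control siRNA libraries, against 810, 930 and 640 CPM in control libraries (1.23, adjusted p = 0.0019). In both genes every control siRNA library lay above every control library, an order that 2270 of 14147 loci showed. Tlr4, another receptor reported to respond to hyaluronan fragments, changed by -0.90 (adjusted p = 0.0170), Hexa by -0.40 (adjusted p = 0.0395) and Adam17, a sheddase, by -0.32 (adjusted p = 0.0298).

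The last 3 calls depended on single libraries. That of Tlr4 was lost without control replicate 1 (0.0668) or control siRNA replicate 2 (0.0735) or 3 (0.0891), that of Hexa in 5 of 6 fits that left out 1 library, and that of Adam17 in all 6 (0.0598 to 0.133). The fibroblast marker sum also differed, with 71381 to 86289 CPM in control siRNA libraries and 37573 to 43378 CPM in control libraries, and Myh1 was at -0.86 (adjusted p = 0.00828). The chondrocyte marker sum was higher too, with 323 to 348 CPM in control siRNA libraries and 172 to 275 CPM in control libraries. That rise was in Acan, at 273 to 307 CPM against 109 to 219 CPM. Of the 7 chondrocyte markers tested only 1 had a positive log2 change, and their median was -0.54. EdgeR called 1 of the 7 lower, where 3.87% of loci were called in either direction. The part of these markers in the changes was not tested.

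The genes whose log2 CPM followed each member most closely over the 15 libraries, among about 10600 named genes of at least 2 CPM on average, were picked by Pearson correlation and are given as a description. Has1 was most like Tpi1, a glycolytic enzyme gene (0.90), Ahi1 (0.86) and Ppm1m (0.85). Has2 was most like the cyclin gene Ccnd2 (0.95), Atp2c1 (0.94) and Ano5 (0.92), and Cd44 like Lox, which crosslinks collagen, Lats2 and Ipo5 (0.91 each). Hyal2 was most like Tysnd1 (0.96), Swi5 (0.90) and Slc35b2 (0.90), Hyal1 like Arfip2 (0.88), Rai1 (0.87) and Tbc1d22a (0.87), Tnfaip6 like Cd59 (0.91), P2rx4 (0.90) and Mfap5 (0.88), and Has3 like Il16 (0.84), Med9 (0.82) and Med18 (0.79). None of these genes was another member or a gene of the pathway lists.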

How the data were processed

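RNA-seq counts were deposited by the authors as whole-number counts per gene, 1 column per library, with a name, position, length and biotype for each gene, per the file headers. The sources used here do not give the aligner, counting tool, use of strand, genome build or annotation. A deposited FPKM table was not used. Groups came from the treatment in the labels, and replicate numbers from the titles. The 7 members, the pathway and marker lists and the tests were chosen with earlier results of these data known.

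From the counts, edgeR 4.0.16 (R 4.3.3) fitted all 15 libraries with 1 term per group after TMM scaling and edgeR's filter on low counts by group, which kept 14147 of 33717 loci (12068 had no count). Each contrast was tested with the robust quasi-likelihood F test, with Benjamini-Hochberg adjustment over all loci, and genes with an adjusted p below 0.05 counted as called. A fit without pairs was the main one. Same-numbered libraries deviated together in stress and control (correlations of 0.27 to 0.40) and with the Ddx5 siRNA (0.25 to 0.59), so the numbers were taken as pairs there. They did not in Ddx5 siRNA against control siRNA (-0.18 to 0.03), control siRNA against control (0.07 to 0.09) or, in every pair, Ddx5 siRNA plus stress against stress (0.05 to 0.31). Alternatives were DESeq2 1.42.0, its size factors within edgeR, no filter, only the groups compared, a replicate block, and each library left out. Replicates of a group had correlations of log2 CPM of 0.958 to 0.985, and none agreed within counting noise. Values are CPM on TMM-scaled totals, and fold changes are fitted log2 values. Genes were named as members, as called genes of a list (at most 4), as its 2 most abundant uncalled genes, and as the 3 genes most correlated with each member. The fit was tested on simulated data. Promoters were read from RefSeq (GRCr8), and figures were drawn with matplotlib 3.10.9. A gene of the pathway lists is not reported here.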

Additional observations from a re-analysis of the deposited data

How the results depend on the processing

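Leaving out 1 library at a time gave 0 to 1 members called for the pooled stress effect, the 1 being Has1. Adding the replicate block in a fit of only the groups compared gave 2 members called in stress against control (Has1 and Has2) and 1 in Ddx5 siRNA plus stress against Ddx5 siRNA (Cd44), where the main fit had 0. DESeq2 gave 1 in Ddx5 siRNA plus stress against stress (Hyal2). The replicate block over all 15 libraries changed no call, with Has1 at 1.29 over both stress comparisons (adjusted p = 0.0134, edgeR). This block also joins groups whose same-numbered libraries did not deviate together. Where the numbers did not pair the libraries, the block called no member.

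Several signs turned. With the block in the groups compared Has3 was -0.042 in stress against control. Without both replicate 1 libraries with the Ddx5 siRNA, a setting chosen after seeing the data, the difference between stress effects was 0.21 for Has1 and 0.17 for Hyal1 (0.19 and 0.13 with the block in the groups compared), Tnfaip6 was -0.30 in Ddx5 siRNA against control siRNA, and Hyal1 was -0.084 in Ddx5 siRNA plus stress against stress. With 1 library left out, stress against control ran from -0.56 to 0.24 for Has3 and from -0.18 to 0.54 for Tnfaip6. Ddx5 siRNA plus stress against Ddx5 siRNA ran from -0.13 to 0.42 for Has2, -0.061 to 0.64 for Hyal1, -0.72 to 0.14 for Tnfaip6, -2.08 to 0.87 for Cemip and -0.62 to 0.082 for Cemip2. The pooled effect ran from -0.31 to 0.12 for Tnfaip6 and -1.40 to 0.074 for Cemip. The difference between stress effects ran from -0.58 to 0.20 for Has1, -0.77 to 0.13 for Has3, -0.37 to 0.33 for Hyal1 and -0.97 to 0.039 for Tnfaip6. Ddx5 siRNA against control siRNA ran from -0.76 to 0.023 for Has1, -0.030 to 0.29 for Has2, -0.54 to 0.16 for Hyal1 and -0.29 to 0.56 for Tnfaip6. Ddx5 siRNA plus stress against stress ran from -0.075 to 0.23 for Hyal1 and -0.45 to 0.13 for Tnfaip6, and control siRNA against control from -0.13 to 0.53 for Tnfaip6. The cause was not tested. Apart from the libraries left out singly, 476 values for single genes kept their direction and side of the threshold, 10 passed it newly, 7 no longer did and 7 turned sign. Has1 had 8 to 46 counts and Has3 4 to 23 per library, and depth limits what could be detected for them.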
